A study of Mus musculus with 24 samples.

Results

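The 33 genes described here encode enzymes that make, recycle and phosphorylate purine and pyrimidine nucleotides. They were taken from a list of symbols, and all 33 are among the 23420 genes of the deposited files. RNA was measured with Smart-seq2, which reads whole transcripts and keeps neither strand nor molecular identifiers, in 24 bulk libraries of 1000 sorted CD8+ T cells each. The 6 mice each gave 1 library at 0, 4, 8 and 24 h, which makes 8 groups of 3 mice. Every mouse carried the OT-I T cell receptor (OTI+) and floxed Tcf7 alleles (Tcf7FL/FL). Mice 1 to 3, labelled cKO, were E8i-cre+, a recombinase driven by an enhancer of the Cd8a locus that is active in mature CD8+ T cells. Mice 4 to 6, labelled WT, were E8i-cre-, so the recombinase and the loss of Tcf7, which encodes the transcription factor TCF1, cannot be told apart. CD8 microbeads were used to isolate the cells from lymph nodes and spleen, and cells were sampled before plating (0 h). The later samples came from plates carrying 1 ug/mL anti-CD3/anti-CD28, with murine IL2 at 6 ng/mL, so the antibodies, the cytokine and time in culture cannot be told apart either.

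A cell can build the purine ring stepwise on phosphoribosyl pyrophosphate (PRPP), or recover free bases and nucleosides by salvage. Pyrimidines are made as a free ring that is joined to PRPP afterwards, and their nucleosides are recovered by uridine-cytidine kinases. Kinases then raise the monophosphates to the triphosphates used for RNA, DNA and membrane lipids. Resting T cells are known to rely largely on salvage, and dividing ones to depend on the de novo routes, which is why drugs against IMP dehydrogenase and dihydroorotate dehydrogenase suppress immune responses.

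The libraries held 5846265 to 9700397 expected counts. The ribosomal RNA gene Rn45s took 14.2 to 20.6% of them from 0 to 8 h and 7.39 to 9.54% at 24 h. All 7 CD8 T cell markers listed were detected in every group, with summed levels of 6628 to 7822 TPM (transcript levels that divide by gene length and by library total) at 0 h and 1307 to 1525 TPM at 24 h. The 7 B cell markers summed to 33.2 to 53.3 TPM at 0 h and to 1.22 to 18.5 TPM later. Cd79b made up nearly all of this at 0 and 24 h, and was at 0.77 to 6.00 TPM at 4 and 8 h, while 5 NK cell markers reached at most 10.4 TPM. The 6 myeloid markers measured summed to 81.6 to 177 TPM, carried by Cst3, while Lyz2 was at 0 in 5 of the 8 groups. The 4 CD4 and regulatory T cell markers summed to 59.1 to 89.7 TPM at 4 h, carried by Cd40lg, while Cd4 reached at most 0.47 TPM. The 4 erythroid markers measured reached 21.6 TPM in cKO at 4 h, carried by Hba-a1, and 0.29 TPM in WT. At most 9.72 TPM was reached by 5 dendritic cell markers and 2.15 TPM by 4 platelet markers. The part of these levels in the results was not tested. Tcf7 itself was higher in the libraries labelled cKO than in those labelled WT at 0 h (681 to 719 against 499 to 567 TPM) and 4 h (251 to 271 against 180 to 205 TPM), overlapped at 8 h and was lower at 24 h (35.7 to 38.3 against 62.6 to 77.0 TPM). Counts over the whole gene do not separate the floxed stretch from the rest, so they do not check the deletion, and WT and cKO below mean the libraries so labelled.

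Promoter sequences are shown for a pair of members whose timing differed, Prps1, which was high by 4 h, and Dtymk, which was high only from 8 h. They are RefSeq stretches of GRCm38.p6 that end just before the transcription start, read along the gene. Capitals mark a match to either of 2 motifs searched on both strands, the E-box CACGTG, known as a binding site of MYC and related factors, and the ETS core CCGGAAG. The motifs do not overlap each other in these stretches. Prps1 lies at chrX:140456483-140456602 (plus strand) and Dtymk at chr1:93801935-93802094 (minus strand).
Prps1: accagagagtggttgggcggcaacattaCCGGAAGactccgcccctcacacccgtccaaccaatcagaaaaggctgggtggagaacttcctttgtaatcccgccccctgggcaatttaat
Dtymk: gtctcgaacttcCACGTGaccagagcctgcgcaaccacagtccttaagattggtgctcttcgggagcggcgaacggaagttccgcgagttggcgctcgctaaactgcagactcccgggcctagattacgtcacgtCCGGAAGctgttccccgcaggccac

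An E-box lay in the windows of 6 of the 31 members with a RefSeq promoter, Paics, Atic, Impdh2, Ak4, Nme1 and Dtymk. Pfas and Dhodh had no entry. The windows are 300 bases long and a gene counts if any of its listed starts holds the motif. Of all 16375 genes of the files with a promoter, 9.25% had an E-box. Distances are from the RefSeq start. The sites are shown with 10 bases on either side. These 6 genes were all called higher at 24 h than at 0 h in WT. So were 26 of the 31 members tested, so this does not set the 6 apart. They begin 203 bases before the start in Paics (chr5:76951089-76951114, plus strand), 7 in Atic (chr1:71557139-71557164, plus strand), 110 in Impdh2 (chr9:108560316-108560341, plus strand), 214 in Ak4 (chr4:101419479-101419504, plus strand), 148 in Dtymk (chr1:93802067-93802092, minus strand) and 18 before the upstream start of Nme1 (chr11:93968275-93968300, minus strand). A second Nme1 site begins 29 bases before its other start (chr11:93968039-93968064, minus strand).
Paics: cctcggaaagCACGTGgagggacctg
Atic: acctcggggtCACGTGgggtcgacac
Impdh2: gctcgataagCACGTGgttacccagc
Ak4: ccactctgccCACGTGcggggaccgg
Dtymk: ctcgaacttcCACGTGaccagagcct
Nme1, upstream start: tgcggggaacCACGTGaggccgggga
Nme1, other start: cttgatacgcCACGTGggctcgcctt

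The ETS core was found in 5 members, Prps1, Ppat, Gart, Uck1 and Dtymk, and in 12.9% of the genes of the files. Among all tested genes with a promoter, the E-box was in 13.9% of the 3189 that were called higher at 24 h than at 0 h in WT, in 10.9% of the 3388 called lower and in 11.1% of the 1969 not called. Of the members in those classes, 6 of 24, 0 of 3 and 0 of 2 held the E-box. The ETS core was in 25.4%, 18.2% and 20.9% of all genes in the same classes. Of the members, 4 of 24, 1 of 3 and 0 of 2 held it. These shares describe letters in a window and were not tested.

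The summed transcript level of the set was higher at each later time, though not every member rose. Summed over the 33 genes, the level in WT was 2692 ± 22.1 TPM at 0 h, 3576 ± 74.1 at 4 h, 5469 ± 71.8 at 8 h and 7210 ± 16.9 at 24 h (SD, n = 3), which is 0.269% of all transcripts at the start and 0.721% at the end. In cKO the sums were 2779 ± 89.7, 3538 ± 71.9, 5174 ± 383 and 7143 ± 144 TPM. The increase from 0 to 24 h was 2.68 ± 0.0271-fold in WT and 2.57 ± 0.109-fold in cKO. TPM is a share of the transcripts in a library, and in bulk samples fewer expressing cells and less RNA per cell cannot be told apart.

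**Figure D1:**
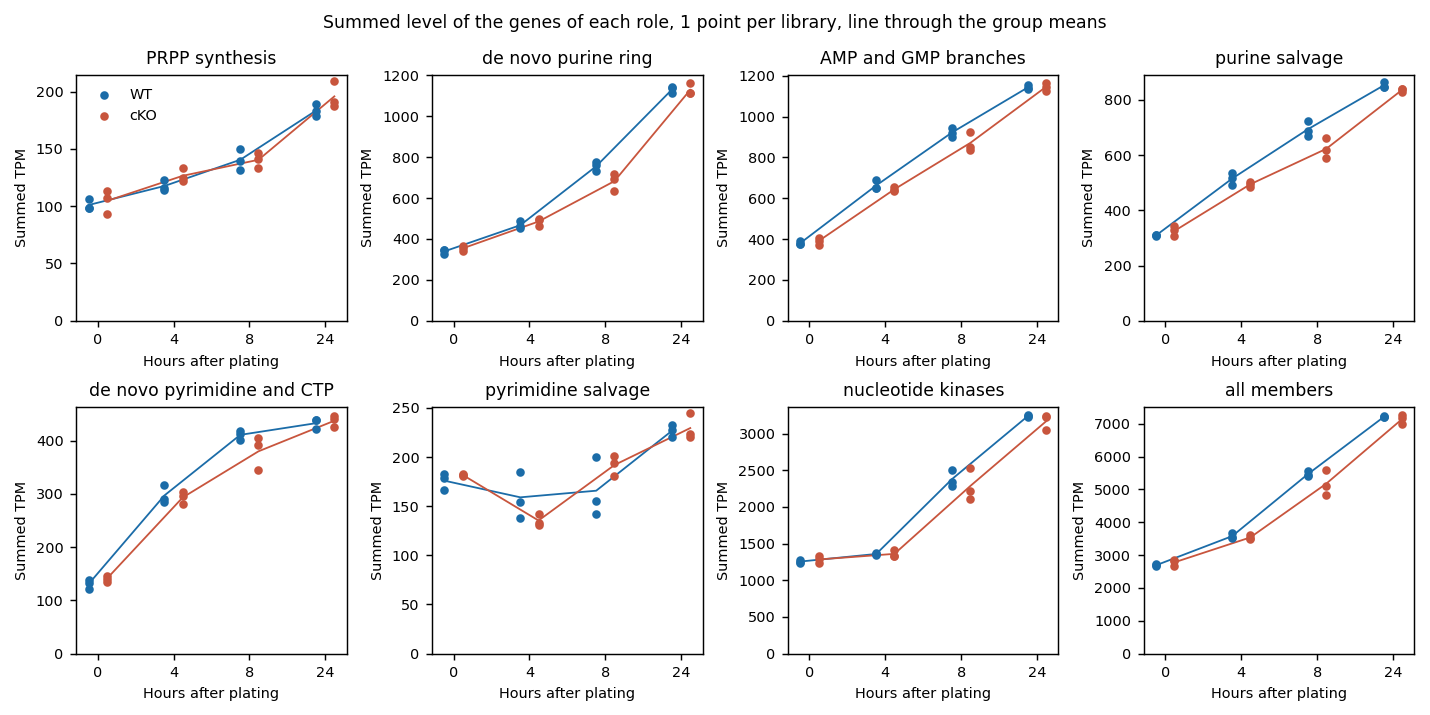
Summed TPM of the genes of each role (vertical axis, from 0) against hours after plating (horizontal axis, not to scale), 1 point per library, WT in blue and cKO in red, lines through the group means. The kinase sum, carried by Nme1 and Nme2, is nearly level until 4 h. The sum of the pyrimidine and CTP genes is nearly level from 8 h. Pyrimidine salvage changes least, while the sum over all members goes from 2692 to 7210 TPM in WT.

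The sums differed in shape between roles. In WT the de novo purine ring genes went from 339 ± 9.88 TPM at 0 h to 1131 ± 17.5 at 24 h, 3.34 ± 0.0464-fold, and the AMP and GMP branches from 381 ± 8.42 to 1143 ± 10.6 TPM, 3.01 ± 0.0798-fold. Purine salvage went from 310 ± 2.24 to 853 ± 9.63 TPM, 2.75 ± 0.0375-fold. The de novo pyrimidine and CTP genes were already at 297 ± 17.5 TPM at 4 h and 411 ± 9.53 at 8 h, against 131 ± 8.10 at 0 h and 433 ± 9.51 at 24 h. The nucleotide kinases summed to 1255 ± 14.9 and 1358 ± 14.4 TPM at 0 and 4 h, and to 2380 ± 115 at 8 h and 3240 ± 14.3 at 24 h. Nme2 and Nme1 made up most of the kinase sum, with 698 and 257 TPM at 0 h. Single kinases differed from it, and Nme4 went from 18.1 to 3.23 TPM by 4 h. PRPP synthesis went from 101 ± 4.27 to 183 ± 5.44 TPM, and pyrimidine salvage from 176 ± 8.59 to 227 ± 6.04 TPM. These are levels with no test.

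Gene by gene, 31 of the 33 members passed the filter on low counts and were tested with edgeR's quasi-likelihood test across 11470 genes. A gene is called at a Benjamini-Hochberg adjusted p under 0.05, and changes are fitted log2 values from counts with their standard error (SE). From 0 to 24 h in WT, 26 of the 31 were called higher and 3 lower, against 36.9% and 40.1% of all genes. The median change of the members was 1.59, and that of all genes −0.08. In cKO the counts were again 26 and 3, against 37.3% and 39% of all genes, with medians of 1.57 and −0.07. The 3 lower genes were Ctps2, Uck1 and Uckl1 in either genotype, and Prps2 and Impdh1 were not called. With Rn45s left out of the counts, 26 members were still called higher and 3 lower in each genotype.

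The steps differed in how many members moved. From 0 to 4 h in WT, 19 members were called higher (30% of all genes) and 6 lower (29.1%). From 4 to 8 h, 25 were called higher (21.9%) and 1, Ctps2, lower (19.7%). From 8 to 24 h, 17 were called higher (24.7%) and 5 lower (34.1%), Impdh1, Adss, Ctps, Uck1 and Uckl1. In that step the count higher was 11 without mouse 4, 13 without mouse 6 and 21 without Rn45s. The count lower was 3 without mouse 3, 5 or 6 and 2 without the filter on low counts. The cKO counts for the same steps were 18 and 5 (29.6% and 27.6% of all genes), 24 and 1 (20.8% and 19.6%), and 20 and 3 (25.2% and 32.1%). The highest mean TPM fell at 24 h for 24 of the 31 members in WT, 77.4%, and for 31.0% of all tested genes. Impdh1, Adss and Ctps were highest at 8 h and Prps2, Ctps2, Uck1 and Uckl1 at 0 h, while 4 h was the peak of 0 members and of 16.1% of all genes.

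**Figure D2:**
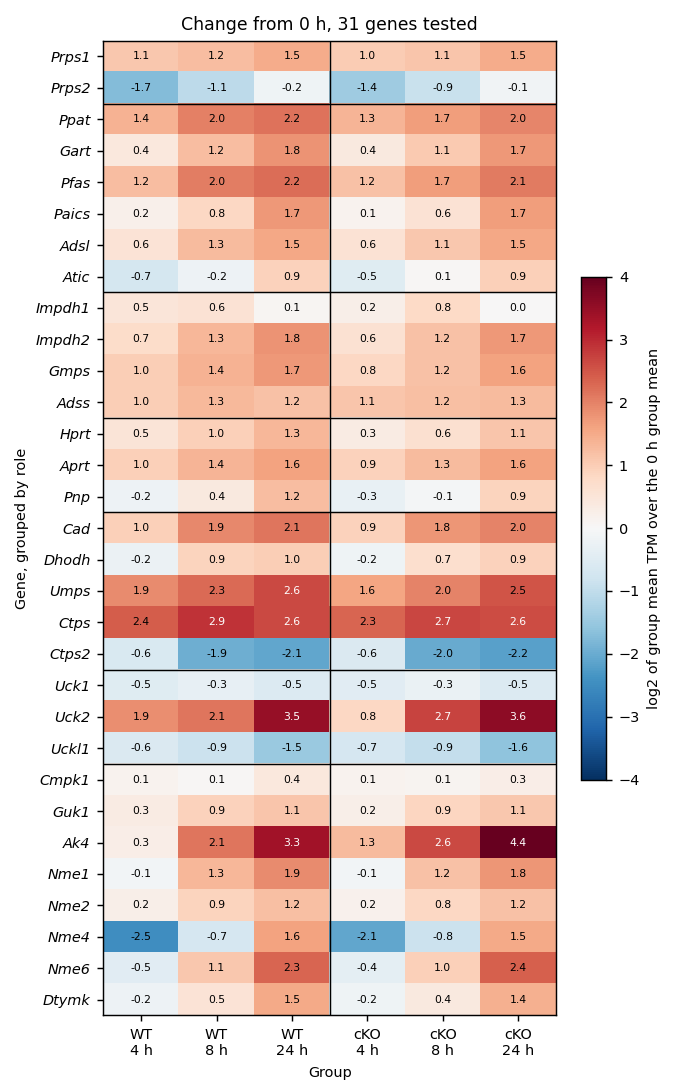
Colour and printed number give the log2 of the group mean TPM over that of the 0 h group of the same genotype, for the 31 members tested (rows, grouped by role) at 4, 8 and 24 h (columns, WT left, cKO right). Red rows fill most of the 24 h columns, with Ctps2, Uck1 and Uckl1 blue and Prps2 and Impdh1 near white.

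PRPP is the sugar phosphate donor of both routes and of salvage, and its synthases Prps1 and Prps2 are close relatives on chromosome X. Prps1 (X, 140456613 to 140476140, plus strand, mm10) was at 47.3, 49.9 and 48.3 TPM at 0 h in the WT mice, numbered 4, 5 and 6, at 106, 103 and 96.9 at 4 h, at 124, 111 and 111 at 8 h and at 141, 134 and 134 at 24 h. In cKO mice 1, 2 and 3 it was at 57.3, 51.5 and 49.7, then 113, 103 and 105, then 104, 113 and 121, and finally 146, 158 and 142 TPM. Every library after 0 h lay above every 0 h library. Its log2 change was 1.16 (SE 0.0899, adjusted p = 9.74e-14) from 0 to 4 h and 1.54 (SE 0.0892, adjusted p = 8.72e-18) from 0 to 24 h in WT.

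Prps2 (X, 167346322 to 167382749, minus strand) went the other way at first. In WT it was at 51.0, 48.8 and 57.6 TPM at 0 h, at 16.7, 12.8 and 17.3 at 4 h, at 25.9, 20.7 and 28.9 at 8 h and at 47.8, 44.9 and 48.4 at 24 h. In cKO the values were 55.5, 56.0 and 43.6, then 20.5, 19.2 and 18.7, then 29.0, 28.4 and 25.5, and at 24 h 45.1, 51.2 and 45.4 TPM. The 4 h libraries were the lowest in either genotype, and those of 24 h overlapped those of 0 h only in cKO. In WT Prps2 fell by 1.64 (SE 0.125, adjusted p = 5.95e-14) to 4 h and was higher again by 0.73 from 4 to 8 h and by 0.80 from 8 to 24 h. Its difference between 24 and 0 h was −0.11 (SE 0.115, adjusted p = 0.394), with a sign that turned without the filter on low counts (0.05).

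The de novo purine ring is assembled by 6 enzymes, and all 6 genes were called higher at 24 h than at 0 h in each genotype. Pfas (11, 68985697 to 69008460, minus strand), the FGAM synthase, moved most. It was at 15.9, 13.4 and 15.3 TPM in WT at 0 h, at 37.4, 35.2 and 33.5 at 4 h, at 62.0, 55.5 and 65.0 at 8 h and at 71.4, 67.5 and 70.4 at 24 h. In cKO it was at 18.0, 14.9 and 17.3, at 33.6, 37.7 and 42.2, at 49.3, 57.5 and 51.7, and at 68.5, 71.1 and 70.6 TPM. The times did not overlap within a genotype, and the WT change to 24 h was 2.28 (SE 0.101, adjusted p = 3.51e-21).

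Ppat, the amidotransferase that commits PRPP to purines, and Paics, which carries out later steps of the ring, lie head to head on chromosome 5 (76913249 to 76951578, minus strand, and 76951307 to 76967509, plus strand). Their annotated exons overlap by 272 bases, and reads there cannot be assigned by strand. Ppat was at 18.0, 20.2 and 26.4 TPM in WT at 0 h, at 60.3, 54.5 and 53.2 at 4 h, at 90.1, 74.5 and 94.3 at 8 h and at 97.8, 94.6 and 97.4 at 24 h. In cKO it went from 21.2, 27.7 and 25.2 through 57.2, 65.6 and 65.9 and 71.4, 79.5 and 85.6 to 91.7, 98.1 and 97.6 TPM. On the log2 scale most of this had happened by 4 h, with a change of 1.48 (SE 0.114, adjusted p = 8.33e-14) in WT and 2.21 (SE 0.114, adjusted p = 2.54e-19) by 24 h. The cKO difference between 24 and 8 h, 0.24 (adjusted p = 0.056), was called in 12 of 17 alternatives, among them the mouse as a block (0.24, adjusted p = 0.0331), DESeq2 and limma.

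Paics, more abundant throughout, was slower. In WT it was at 146, 131 and 132 TPM at 0 h, at 164, 153 and 154 at 4 h, at 253, 232 and 238 at 8 h and at 468, 440 and 466 at 24 h. Values in cKO were 152, 152 and 131, then 153, 165 and 163, then 203, 220 and 225, and 444, 476 and 460 TPM. At 4 h the cKO libraries lay just above those of 0 h. The WT log2 change was 0.30 (SE 0.0837, adjusted p = 0.0024) from 0 to 4 h and 1.79 (SE 0.0847, adjusted p = 1.95e-20) by 24 h. The cKO change at 4 h, 0.23 (adjusted p = 0.0187), was not called without mouse 2 or without mouse 3, on log2 TPM with limma or with only those 2 groups in the fit (adjusted p up to 0.194).

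Gart, a trifunctional enzyme of the early ring, and Adsl, adenylosuccinate lyase, lay between these. Gart went from 73.4 ± 1.78 TPM at 0 h to 97.5 ± 3.65 at 4 h, 173 ± 5.28 at 8 h and 254 ± 3.83 at 24 h in WT (SD, n = 3), with a log2 change of 1.84 by 24 h. Adsl went from 75.0 ± 2.63 to 110 ± 4.52, 178 ± 10.4 and 218 ± 1.43 TPM, a log2 change of 1.59. Atic, which closes the purine ring, was the exception at 4 h. WT libraries had 16.7, 14.5 and 23.1 TPM at 0 h, at 13.2, 8.90 and 11.5 at 4 h, at 18.3, 12.3 and 16.4 at 8 h and at 33.9, 33.7 and 34.3 at 24 h. The cKO libraries were at 19.0, 15.8 and 15.1, at 12.4, 14.6 and 8.60, at 16.5, 19.3 and 16.2, and at 32.4, 32.7 and 30.7 TPM. The 24 h libraries stood above all others. Atic fell by 0.59 (SE 0.181, adjusted p = 0.00593) from 0 to 4 h in WT, a call lost without mouse 6 (adjusted p = 0.146), and was higher by 0.96 (SE 0.165, adjusted p = 3.71e-06) at 24 h. The cKO difference at 4 h was −0.39 (adjusted p = 0.0599) and was called with the mouse as a block (−0.40, adjusted p = 0.0292), as in 9 other alternatives.

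IMP, the first complete purine nucleotide, is turned into GMP through IMP dehydrogenase and Gmps, or into AMP through adenylosuccinate synthase and Adsl. The inducible dehydrogenase gene Impdh2 (9, 108560286 to 108565584, plus strand) was the most abundant of this branch. In WT it was at 226, 229 and 247 TPM at 0 h, at 396, 373 and 398 at 4 h, at 569, 585 and 606 at 8 h and at 823, 820 and 799 at 24 h. Levels in cKO were 249, 248 and 230, at 364, 369 and 375, at 536, 588 and 529, and at 795, 816 and 816 TPM. The 4 times did not overlap. Its log2 change in WT was 0.83 (SE 0.0853, adjusted p = 1.63e-10) by 4 h and 1.84 (SE 0.0866, adjusted p = 1.72e-20) by 24 h.

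Its relative Impdh1 (6, 29200434 to 29216364, minus strand) was higher in the middle of the series only. It was at 33.7, 31.2 and 29.0 TPM in WT at 0 h, at 48.1, 40.1 and 43.2 at 4 h, at 55.7, 32.6 and 53.0 at 8 h and at 31.0, 35.3 and 33.7 at 24 h. In cKO the values were 29.5, 32.5 and 34.5, then 38.2, 38.9 and 36.3, then 56.3, 55.8 and 54.1, and 30.7, 35.0 and 32.3 TPM. At 8 h the library of WT mouse 5 lay at the level of the 0 and 24 h libraries, while the other 5 lay between 53.0 and 56.3 TPM. Impdh1 was called higher at 4 h than at 0 h in WT (0.59, SE 0.12, adjusted p = 7.58e-05) and lower at 24 h than at 8 h (−0.58, SE 0.117, adjusted p = 6.73e-05). Its difference between 24 and 0 h was 0.14 (SE 0.119, adjusted p = 0.285) and was called without the filter on low counts (adjusted p = 0.0322).

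Gmps, GMP synthetase, went from 34.1 ± 1.56 TPM at 0 h to 66.7 ± 4.58, 89.7 ± 4.50 and 114 ± 2.82 in WT, a log2 change of 1.80 by 24 h. Adss (1, 177762962 to 177796511, minus strand), the adenylosuccinate synthase found in most tissues, was at 84.2, 78.6 and 81.1 TPM in WT at 0 h, at 172, 172 and 143 at 4 h, at 202, 199 and 196 at 8 h and at 187, 171 and 186 at 24 h. The cKO mice had 72.1, 88.7 and 73.2, at 173, 179 and 154, at 164, 190 and 186, and at 187, 194 and 185 TPM. All later libraries lay above those of 0 h, and by 4 h the log2 change was 1.10 (SE 0.0998, adjusted p = 7.02e-12) in WT, close to the 1.20 seen at 24 h. The lower value at 24 h than at 8 h in WT (−0.24, adjusted p = 0.0323) was not called in 12 of 17 alternatives. The muscle form Adssl1 (12, 112620045 to 112641360, plus strand) had 0 to 9 counts per library and was not tested. Its levels were between 0 and 1.40 TPM.

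In purine salvage, Hprt recovers hypoxanthine and guanine, Aprt recovers adenine, and Pnp releases bases from nucleosides. Aprt (8, 122574635 to 122576909, minus strand) was at 158, 152 and 159 TPM in WT at 0 h, at 307, 302 and 301 at 4 h, at 385, 433 and 394 at 8 h and at 450, 497 and 470 at 24 h. In cKO it was at 154, 148 and 144, at 284, 279 and 278, at 335, 382 and 361, and at 458, 466 and 451 TPM. Libraries of different times did not overlap. In WT the log2 change was 1.03 (SE 0.0971, adjusted p = 1.56e-11) by 4 h and 1.63 (SE 0.0967, adjusted p = 1.56e-17) by 24 h.

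Pnp (14, 50931082 to 50965237, plus strand) was later and weaker, and has a near-identical neighbour, Pnp2, with which reads may be shared. It was at 17.3, 17.0 and 11.3 TPM in WT at 0 h, at 14.8, 11.9 and 13.1 at 4 h, at 18.7, 20.2 and 20.3 at 8 h and at 36.7, 34.8 and 34.8 at 24 h. Values in cKO were 18.0, 19.7 and 16.9, then 16.1, 13.2 and 15.3, then 16.7, 18.6 and 16.1, and 32.7, 34.9 and 33.3 TPM. The 24 h libraries stood above the rest, and the change from 0 to 24 h was 1.27 (SE 0.134, adjusted p = 1.01e-10) in WT and 0.96 (SE 0.13, adjusted p = 3e-08) in cKO. Hprt went from 138 ± 5.36 TPM at 0 h to 198 ± 16.9, 270 ± 14.2 and 345 ± 14.5 in WT, a log2 change of 1.36 by 24 h.

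Pyrimidine synthesis starts with the trifunctional protein encoded by Cad, passes through the mitochondrial dihydroorotate dehydrogenase Dhodh, and reaches UMP through Umps. CTP synthases then turn UTP into CTP. Umps (16, 33954782 to 33967038, minus strand) was at 20.0, 22.9 and 30.0 TPM in WT at 0 h, at 95.9, 93.3 and 81.1 at 4 h, at 115, 119 and 116 at 8 h and at 151, 156 and 149 at 24 h. The cKO libraries were at 26.1, 26.5 and 27.2, at 81.7, 75.8 and 78.7, at 96.8, 113 and 108, and at 155, 154 and 145 TPM. The 4 times did not overlap in either genotype. The WT log2 change was 1.99 (SE 0.111, adjusted p = 1.18e-17) by 4 h and 2.69 (SE 0.112, adjusted p = 5.28e-22) by 24 h.

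Ctps (4, 120539868 to 120570276, minus strand), which encodes CTP synthase 1, had the largest 4 h change of all members in WT. It was at 21.3, 28.4 and 20.4 TPM at 0 h, at 132, 124 and 121 at 4 h, at 169, 170 and 178 at 8 h and at 149, 143 and 146 at 24 h. In cKO the values were 23.9, 24.5 and 26.7, then 115, 132 and 133, then 139, 166 and 172, and 151, 156 and 151 TPM. Each later library lay far above all those of 0 h. Its log2 change in WT was 2.52 (SE 0.111, adjusted p = 1.22e-20) by 4 h and 2.68 (SE 0.111, adjusted p = 4.16e-22) by 24 h, and Ctps was lower at 24 h than at 8 h by −0.35 (SE 0.0995, adjusted p = 0.00319), a call lost without the filter on low counts (adjusted p = 0.0869).

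Ctps2 (X, 162901238 to 163032508, plus strand), the second CTP synthase, fell from 0 to 8 h and was not called from 8 to 24 h. It was at 39.9, 40.7 and 41.1 TPM in WT at 0 h, at 25.2, 25.3 and 29.1 at 4 h, at 10.5, 8.95 and 12.3 at 8 h and at 10.4, 9.07 and 9.50 at 24 h. Levels in cKO were 41.6, 45.9 and 46.6, at 27.5, 26.8 and 35.2, at 14.4, 8.16 and 10.4, and at 9.75, 10.1 and 10.1 TPM. The 0, 4 and 8 h libraries did not overlap, while those of 8 and 24 h did. In WT the log2 change was −0.51 (SE 0.119, adjusted p = 0.000368) by 4 h, a further −1.27 (SE 0.127, adjusted p = 4.4e-10) to 8 h and −2.02 (SE 0.125, adjusted p = 6.82e-17) over the 24 h. Cad went from 17.2 ± 0.318 TPM at 0 h to 33.5 ± 2.21, 64.7 ± 5.21 and 75.9 ± 4.53 in WT, a log2 change of 2.19 by 24 h. Dhodh was not called at 4 h (−0.14, adjusted p = 0.525) and went from 25.1 ± 2.79 TPM at 0 h to 47.0 ± 3.16 at 8 h and 49.6 ± 3.83 at 24 h, a log2 change of 1.02.

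**Figure D3:**
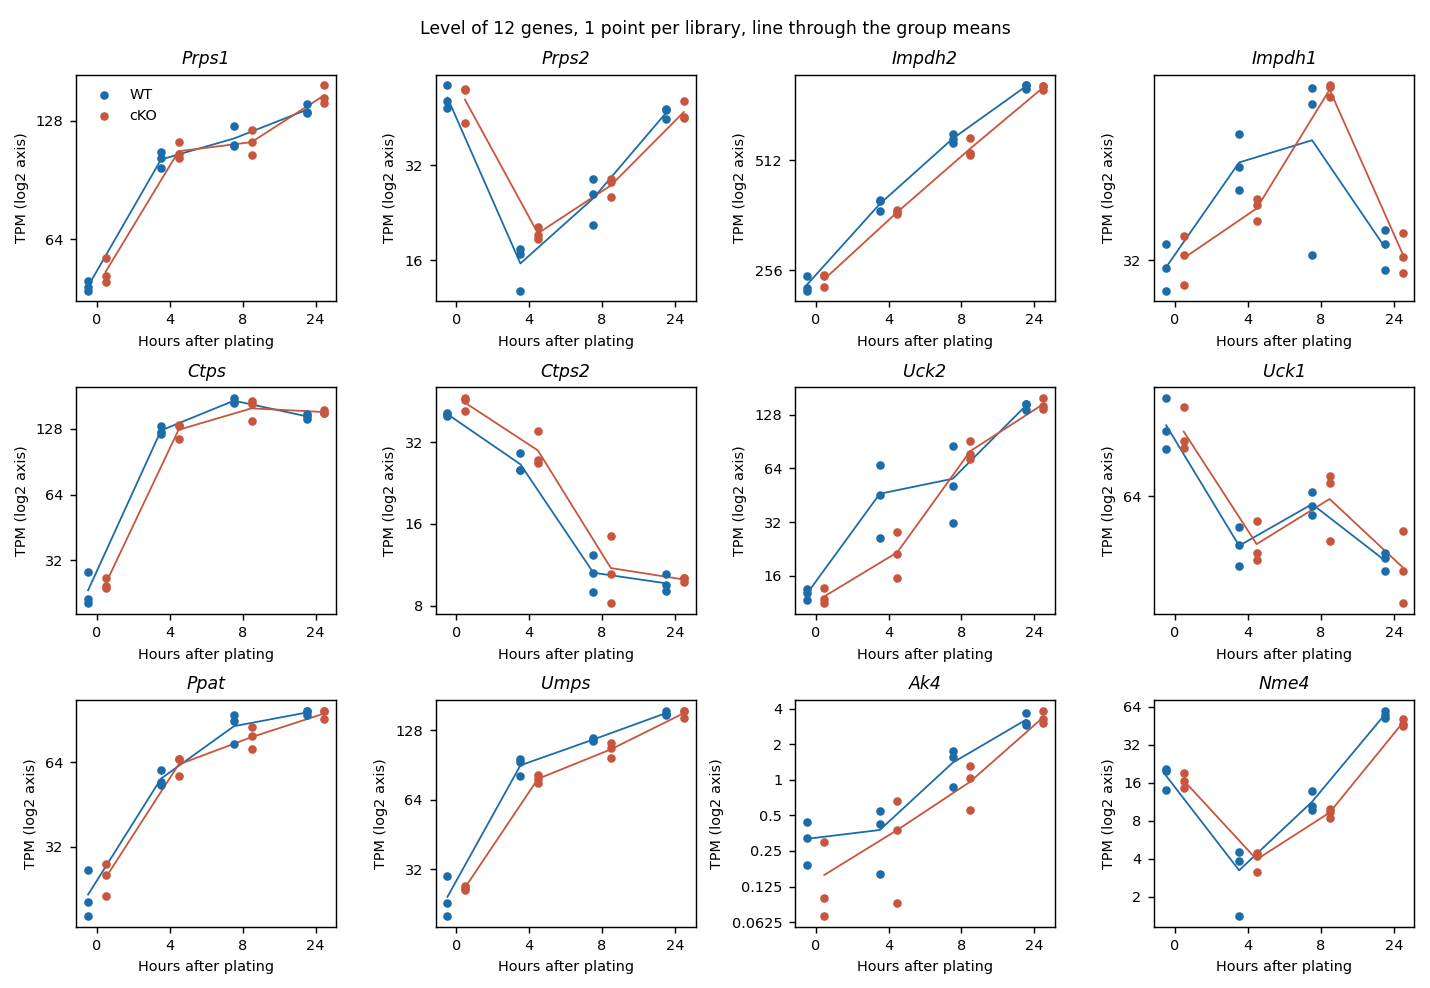
TPM (log2 axis) of 12 members against hours after plating, 1 point per library, WT in blue and cKO in red, lines through the group means. Prps1, Impdh2, Ctps, Uck2, Ppat, Umps and Ak4 end far above their 0 h level, Ctps2 and Uck1 end below it, Prps2 and Nme4 dip at 4 h, and the WT points of Uck2 spread widely at 4 and 8 h.

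The uridine-cytidine kinases split. Uck2 (1, 167222883 to 167285320, minus strand), the form of higher activity, had the largest change of the members at 24 h in WT. In mice 4, 5 and 6 Uck2 had 12.8, 13.5 and 11.8 TPM before plating, and then at 26.1, 45.4 and 66.8 at 4 h, at 85.3, 50.9 and 31.7 at 8 h and at 135, 147 and 147 at 24 h. In cKO mice 1, 2 and 3 it was at 11.2, 11.9 and 13.7, at 28.2, 21.2 and 15.7, at 71.9, 90.5 and 77.4, and at 159, 142 and 138 TPM. The order of the 3 WT mice at 8 h was the reverse of that at 4 h, and mouse 6 had more Uck2 at 4 h than at 8 h. The WT log2 change was 1.93 (SE 0.336, adjusted p = 9.05e-05) by 4 h and 3.53 (SE 0.322, adjusted p = 1.69e-08) by 24 h. In cKO the 4 h change was 0.92 (SE 0.352, adjusted p = 0.0345), and it was not called with the mouse as a block (0.91, adjusted p = 0.0689), without the filter on low counts or without mouse 1, 2, 3 or 5 (adjusted p up to 0.296).

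Uck1 (2, 32255002 to 32260159, minus strand) fell mildly. It was at 73.0, 84.3 and 76.8 TPM in WT at 0 h, at 58.7, 52.7 and 55.8 at 4 h, at 60.8, 62.3 and 64.7 at 8 h and at 54.6, 53.9 and 51.9 at 24 h. Values in cKO were 73.2, 74.8 and 82.1, then 53.6, 54.6 and 59.7, then 56.4, 67.7 and 66.4, and 58.0, 47.4 and 52.0 TPM. All 0 h libraries lay above the later ones. Its log2 change in WT was −0.50 (SE 0.103, adjusted p = 4.49e-05) over 24 h and −0.39 (SE 0.105, adjusted p = 0.00156) by 4 h, the latter lost without mouse 5 (adjusted p = 0.0765).

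Uckl1 (2, 181569149 to 181584892, minus strand), a kinase-like relative, fell further. It was at 80.4, 85.2 and 89.8 TPM in WT at 0 h, at 53.1, 56.2 and 61.9 at 4 h, at 54.0, 42.2 and 45.3 at 8 h and at 30.3, 27.4 and 32.8 at 24 h. The cKO mice had 97.8, 95.8 and 84.8, at 60.6, 57.4 and 55.3, at 52.6, 42.4 and 50.4, and at 27.5, 33.4 and 30.6 TPM. The libraries of 0 and 24 h stood apart from the rest at either end, and the WT change was −1.45 (SE 0.104, adjusted p = 3.58e-15). Upp1 (11, 9118103 to 9136170, plus strand), a uridine phosphorylase, had 0 to 2 counts per library and at most 3 in any group. At this depth it was not tested and no fold is given.

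The nucleotide kinases were the most abundant role, with Nme1 and Nme2 in the lead. These neighbours on chromosome 11 (93956979 to 93968521 and 93949814 to 93956259, minus strand) encode nearly identical nucleoside diphosphate kinases, so the split of reads between them is uncertain. Nme2 was at 712, 663 and 720 TPM in WT at 0 h, at 824, 803 and 816 at 4 h, at 1206, 1348 and 1315 at 8 h and at 1603, 1604 and 1590 at 24 h. In cKO it was at 739, 695 and 674, at 773, 829 and 794, at 1162, 1362 and 1209, and at 1464, 1601 and 1648 TPM. The times did not overlap, and the WT change to 24 h was 1.20 (SE 0.0954, adjusted p = 6.19e-14).

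Nme1 started lower and changed more. In WT it was at 249, 258 and 266 TPM at 0 h, at 246, 231 and 236 at 4 h, at 634, 711 and 590 at 8 h and at 930, 953 and 955 at 24 h. In cKO the values were 295, 276 and 244, then 256, 263 and 232, then 548, 695 and 577, and 909, 935 and 940 TPM. The 4 h libraries lay below those of 0 h in WT and overlapped them in cKO, and the jump came between 4 and 8 h. In WT the log2 change was −0.03 (adjusted p = 0.831) by 4 h, 1.5 (SE 0.11, adjusted p = 1.65e-12) from 4 to 8 h and 1.92 (SE 0.111, adjusted p = 4.43e-17) over the 24 h.

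Ak4 (4, 101419277 to 101466995, plus strand), a mitochondrial adenylate kinase, changed by the largest factor among the kinases but from very little. It was at 0.32, 0.44 and 0.19 TPM in WT at 0 h, at 0.42, 0.16 and 0.55 at 4 h, at 0.87, 1.56 and 1.77 at 8 h and at 2.92, 3.71 and 3.04 at 24 h. The cKO libraries were at 0.10, 0.07 and 0.30, at 0.66, 0.09 and 0.38, at 1.04, 1.30 and 0.56, and at 3.29, 3.87 and 3.02 TPM. The 24 h libraries lay above all others. The WT group had 21 counts at 0 h and 283 at 24 h, and the log2 change was 3.37 (SE 0.42, adjusted p = 5.11e-09). Cmpk1 (4, 114959336 to 114987241, minus strand), the UMP-CMP kinase, was the steadiest. It was at 79.5, 78.0 and 68.9 TPM in WT at 0 h, at 80.0, 90.7 and 79.3 at 4 h, at 84.3, 76.5 and 75.6 at 8 h and at 106, 97.6 and 101 at 24 h. Levels in cKO were 82.1, 90.1 and 77.0, at 90.0, 91.2 and 91.5, at 84.0, 97.9 and 86.2, and at 98.3, 103 and 94.8 TPM. The WT libraries of 24 h stood above the others, and the change was 0.47 (SE 0.0951, adjusted p = 3.39e-05). At 4 h Cmpk1 was called in WT (0.23, adjusted p = 0.0361), a call lost in 9 of 17 alternatives, and not in cKO (0.21, adjusted p = 0.0572), where it was called with the mouse as a block (0.21, adjusted p = 0.0401).

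Nme4 (17, 26091734 to 26095602, minus strand), a mitochondrial nucleoside diphosphate kinase, had the largest 4 h decrease of all members. It was at 14.0, 20.4 and 19.9 TPM in WT at 0 h, at 4.49, 1.40 and 3.81 at 4 h, at 9.74, 13.7 and 10.4 at 8 h and at 52.4, 59.5 and 55.1 at 24 h. The cKO mice had 19.1, 16.4 and 14.5, at 4.23, 4.44 and 3.15, at 8.46, 9.43 and 9.89, and at 51.1, 45.1 and 46.2 TPM. The 4 times did not overlap. Nme4 fell by 2.38 (SE 0.295, adjusted p = 1.08e-08) by 4 h in WT and was higher by 2.18 (SE 0.218, adjusted p = 1.04e-10) from 8 to 24 h. Nme6 was at 11.8 ± 0.586 TPM at 0 h, 8.57 ± 2.23 at 4 h, 24.8 ± 0.827 at 8 h and 58.9 ± 2.65 at 24 h in WT, a log2 change of 2.35. Dtymk, the thymidylate kinase of DNA precursor supply, was at 84.7 ± 11.1, 73.2 ± 5.98, 123 ± 6.84 and 243 ± 10.8 TPM, a log2 change of 1.35, and Guk1, the guanylate kinase, at 109 ± 11.9, 137 ± 5.67, 206 ± 8.21 and 232 ± 10.1 TPM, a log2 change of 1.12.

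Within several pairs of related enzymes the balance shifted, which a ratio inside each library shows without any scaling between libraries. The ratio of Ctps to Ctps2 was 0.576 ± 0.108 in WT at 0 h, 4.77 ± 0.548 at 4 h, 16.5 ± 2.30 at 8 h and 15.1 ± 0.746 at 24 h, so that Ctps2 was the more abundant before plating and Ctps afterwards. In cKO it was 0.560 ± 0.0227, 4.30 ± 0.596, 15.5 ± 5.40 and 15.3 ± 0.281. The ratio of Uck2 to Uck1 passed 1 later and unevenly. It was above 1 in 1 of 6 libraries at 4 h, in 4 of 6 at 8 h and in 6 of 6 at 24 h, and in WT mouse 6 it went from 1.20 at 4 h to 0.490 at 8 h. Its mean went from 0.163 ± 0.0110 to 2.68 ± 0.182 at 24 h in WT and from 0.160 ± 0.00693 to 2.80 ± 0.176 in cKO. Prps1 to Prps2 was 0.931 ± 0.0922 in WT at 0 h, highest at 4 h with 6.65 ± 1.23, and 2.90 ± 0.110 at 24 h. Impdh2 to Impdh1 went from 7.52 ± 0.917 at 0 h through 8.91 ± 0.584 and 13.2 ± 4.17 to 24.5 ± 1.80 in WT. At 8 h this ratio was 18.0 in WT mouse 5 and 10.2 and 11.4 in mice 4 and 6. In cKO the ratio changed mostly after 8 h, from 7.57 ± 0.881 through 9.78 ± 0.467 and 9.95 ± 0.523 to 24.8 ± 1.32.

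**Figure D4:**
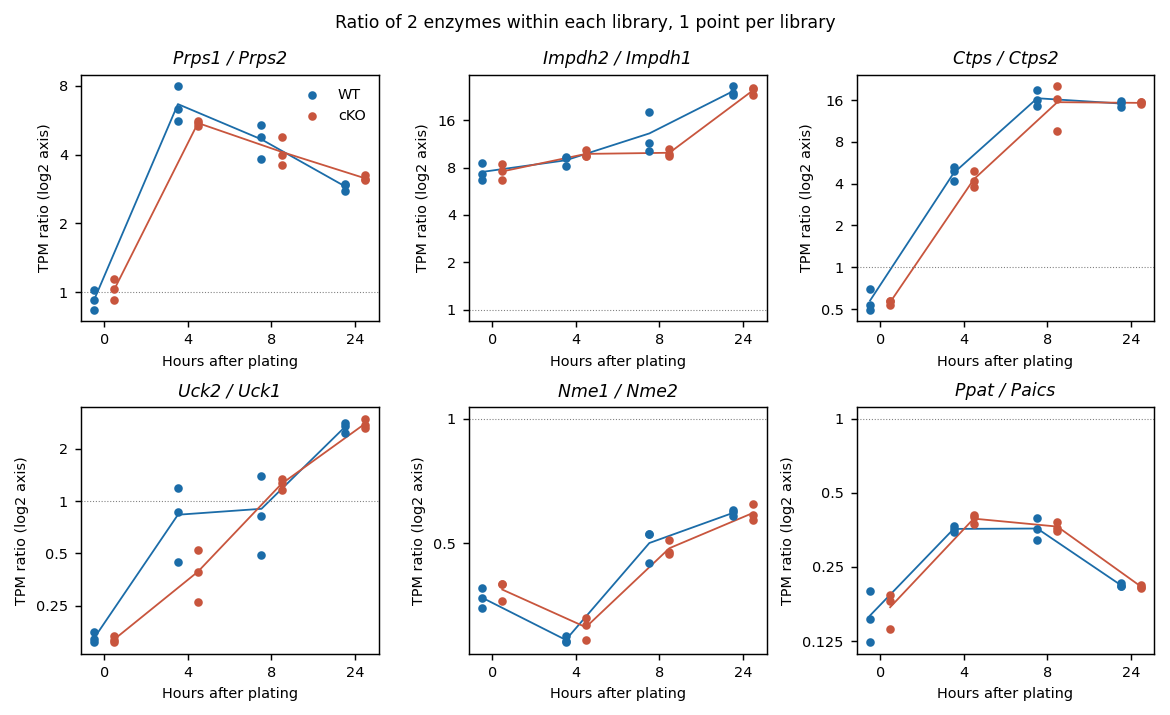
Ratio of the TPM of 2 enzymes in each library (log2 axis) against hours after plating, 1 point per library, WT in blue and cKO in red, dotted line at a ratio of 1. The Ctps to Ctps2 ratio lies below 1 in all 0 h libraries and above 1 in all later ones, and the Uck2 to Uck1 ratio is above 1 in all 24 h libraries.

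Over the 6 mice, the log2 ratio at 24 h against 0 h of the same mouse changed by 4.75 ± 0.156 (SD, n = 6) for Ctps to Ctps2, by 4.08 ± 0.155 for Uck2 to Uck1, by 1.71 ± 0.197 for Impdh2 to Impdh1 and by 1.63 ± 0.112 for Prps1 to Prps2. Nme1 to Nme2 was lower at 4 h in 6 of 6 mice (−0.32 ± 0.0704) and higher at 24 h in 6 of 6 (0.65 ± 0.0634). Ppat to Paics was higher at 4 h by 1.20 ± 0.272 and at 24 h by 0.36 ± 0.275, again in 6 of 6 mice. Each of the 18 comparisons (6 pairs at 3 times) gave p = 0.03125 in a two-sided exact sign-flip permutation test over the 6 mice, the smallest that test can give, and 0.03125 after adjustment over the 18. The test was added after the levels had been seen. All 6 mice moved the same way in each comparison, so the p-values add nothing to that count. The mice of both genotypes entered the same test.

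For most of these genes the interval of the difference between libraries labelled cKO and WT stayed within 1.5-fold. With edgeR, 0 of the 31 tested members were called at 0 h (0.445% of all genes), at 4 h (0.82%), at 8 h (0.183%) or at 24 h (0.105%). So few genes were called at all that these counts of 0 do not set the members apart. At an unadjusted p under 0.05 the counts were 0, 4, 6 and 0, against 845, 1354, 1139 and 423 of all 11470 genes. DESeq2 called 0, 1, 0 and 0, and limma on log2 TPM called 0 at each time. The 95% interval of the difference lay within 1.5-fold in either direction for 28 of the 31 members at 0 h, 28 at 4 h, 26 at 8 h and 29 at 24 h. The exceptions were Ak4 and Nme4 at all 4 times, Uck2 at 0, 4 and 8 h, and Dhodh and Nme6 at 8 h.

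**Figure D5:**
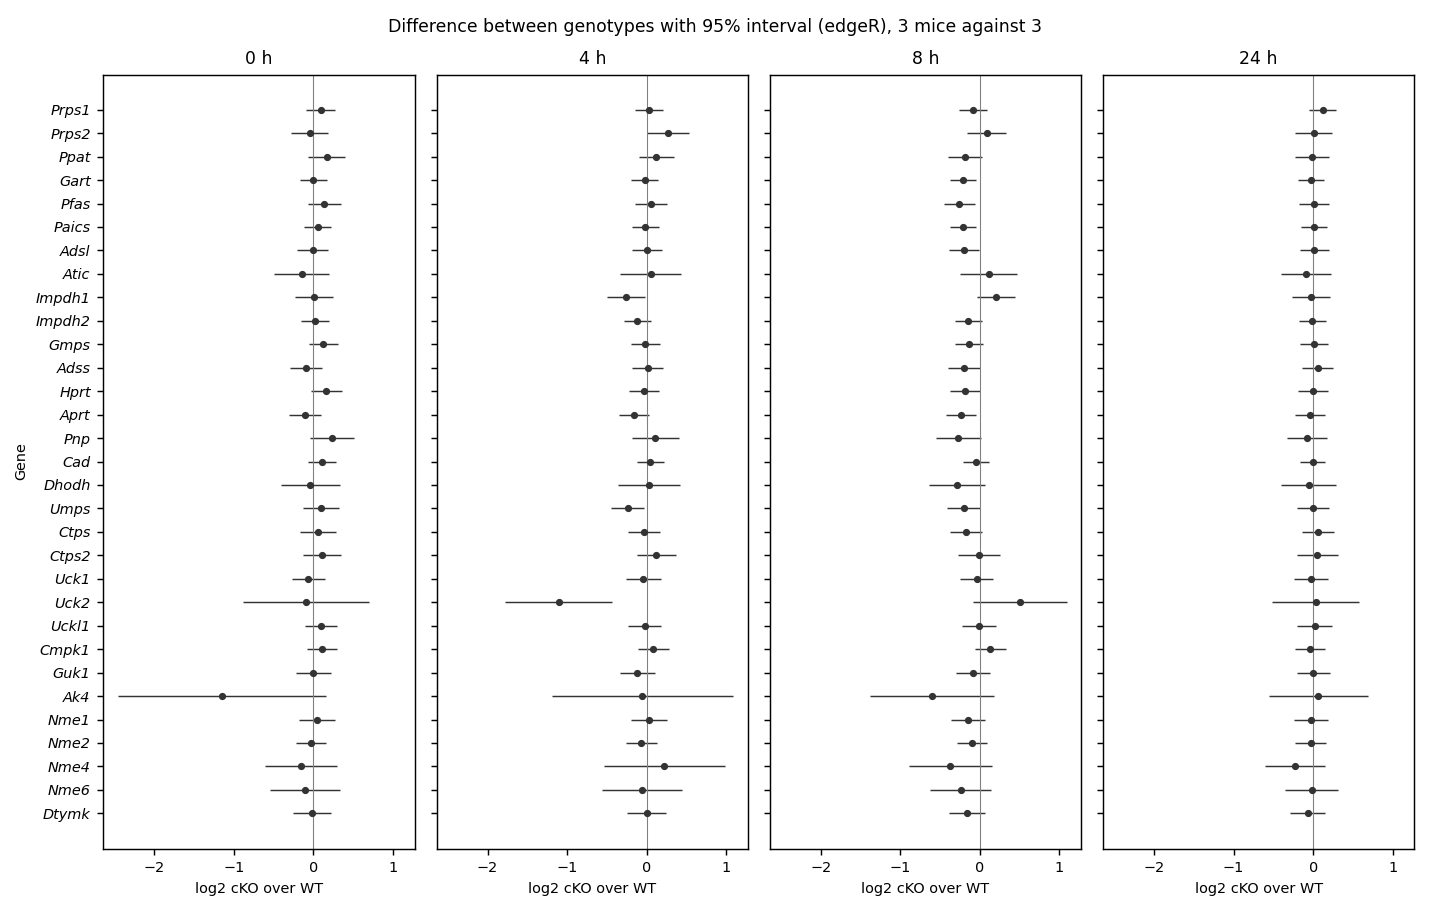
Fitted log2 difference of cKO over WT (points) with its 95% interval (lines) for the 31 members at each time, 3 mice against 3. Most points lie near 0 with short intervals, Uck2 at 4 h lies at −1.11 with an interval that excludes 0, and Ak4, with few counts, has the longest intervals.

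Uck2 had the largest difference at a level well above the floor. At 4 h the WT libraries (26.1, 45.4 and 66.8 TPM) and the cKO libraries (28.2, 21.2 and 15.7 TPM) overlapped only in WT mouse 4 and cKO mouse 1. The log2 difference was −1.11 (SE 0.317, interval −1.78 to −0.44, adjusted p = 0.135). DESeq2 called it (adjusted p = 0.0252), as did edgeR without WT mouse 4 (−1.39, adjusted p = 0.00857), and over all alternatives the adjusted p went up to 0.521. At 8 h the difference was 0.50, and the change from 4 to 8 h differed between genotypes by 1.61 (SE 0.423, interval 0.71 to 2.51, adjusted p = 0.171). This interaction was called by DESeq2 (adjusted p = 0.0319) and without WT mouse 4 (2.20, adjusted p = 0.00221), and its adjusted p reached 0.732 without WT mouse 6. By 24 h the levels were 143 ± 6.71 TPM in WT and 146 ± 11.2 in cKO.

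At 8 h most fitted differences were below 0, by an amount that depended on single mice. The fitted difference was below 0 for 26 of the 31, with a median of −0.16 against −0.03 over all genes, and 0 of the 31 were called. All members were read in the same libraries, so their signs are not independent, and the shared direction was not tested. Without the 8 h libraries of mice 2 and 5 the difference was below 0 for 27, with a median of −0.19. Those 2 libraries had the lowest Tcf7 of their genotype at 8 h, 73.6 TPM in mouse 2 and 52.6 TPM in mouse 5. Leaving out all libraries of 1 mouse gave a median of −0.10 without mouse 1, −0.26 without mouse 2, −0.10 without mouse 3 and −0.10 without mouse 5, with 23 to 25 members below 0, and limma on log2 TPM had 22 below 0. Of the members, 6 had TPM without overlap and lower in cKO (4.73% of all genes), Gart, Paics, Adss, Aprt, Pnp and Umps, and 0 were without overlap and higher (5.82%). Pfas had the largest of the differences under an unadjusted p of 0.05, −0.26 (adjusted p = 0.32). At 24 h the fitted differences ran from −0.23 for Nme4 to 0.12 for Prps1. At that time 2 members, Prps1 and Ctps, were without overlap and higher in cKO (7.24%), and 2, Atic and Nme4, lower (5.89%). At 0 h Hprt, Cad and Ctps2 were without overlap and higher (9.58%) and 0 lower (4.87%), and at 4 h Prps2 was higher (10.5%) and Impdh1 and Aprt lower (5.81%).

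The test of whether a change over time differed between genotypes called 0 members from 0 to 4 h (0.00872% of all genes), from 4 to 8 h (0.061%), from 8 to 24 h (0.00872%) and from 0 to 24 h (0.0174%) with edgeR. With shares that low, counts of 0 do not set the members apart. At an unadjusted p under 0.05 the counts were 1, Umps, then 3, Pfas, Impdh1 and Uck2, then 0 and 0. Of all 11470 genes, 816, 976, 510 and 492 were under it in the same comparisons. DESeq2 called 1, Uck2, in the step from 4 to 8 h and 0 in the others. Simulated 1.5-fold and 2-fold differences between the genotypes at 24 h were called in 56% and 83% of genes. Smaller differences at that time are less surely seen with 3 mice in each group. Differences in a change over time were not simulated, so these shares do not apply to them. The intervals of these differences lay within 1.5-fold for 22 of 31 members from 0 to 4 h and 22 from 4 to 8 h. The count was 25 from 8 to 24 h and 26 from 0 to 24 h, against 29 between the genotypes at 24 h.

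Lists of genes that feed or drain the pathway were read in the same WT comparison of 24 with 0 h, in which 36.9% of all genes were called higher and 40.1% lower. Of 20 genes of folate and one-carbon supply, which provides carbons of the purine ring, 15 were called higher and 1 lower. Psat1 and Phgdh of serine synthesis changed by 4.28 (SE 0.127) and 2.78 (SE 0.101) and the mitochondrial Shmt2 by 2.49 (SE 0.0994). Of 7 pentose phosphate genes, which supply ribose, 5 were higher and 1 lower, by 1.21 for Tkt, 0.84 for G6pdx and 0.68 for Rpe. Of 11 genes of deoxynucleotide supply, 7 were higher and 4 lower. Tk1, thymidine kinase, was at 1.21 TPM at 0 h and 135 at 24 h (6.81, SE 0.231), Dut changed by 3.70 and Rrm1, the large subunit of ribonucleotide reductase, by 3.71. All of these adjusted p-values were at most 8.48e-07.

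In nucleotide breakdown and interconversion 7 of 14 tested genes were higher and 4 lower, against the same 36.9% and 40.1% of all genes. The AMP deaminase gene Ampd1 was at 31.8 TPM in WT at 0 h and 0.0933 at 24 h, 973 counts against 4, while its relative Ampd2 was higher by 1.57 (SE 0.107) and adenosine kinase, Adk, by 1.87 (SE 0.132). Of 6 other nucleotide kinases tested, 4 were higher and 2 lower, Nme3 at −1.38 and the mitochondrial Cmpk2, which went from 14.3 TPM to 0.0367, 2 counts in 3 libraries. Of 5 nucleoside and nucleobase transporters, 3 were higher, the purine base transporter Slc43a3 by 4.03, Slc29a2 by 2.93 and Slc29a1 by 2.08, and 1, Slc28a2, was lower (−2.86). The medians of these 6 lists were 2.10, 0.68, 2.58, 0.13, 0.55 and 2.08 in the order given, against −0.08 over all genes. In the genotype comparisons the lists held 3 called genes, against 0.445%, 0.82%, 0.183% and 0.105% of all genes at 0, 4, 8 and 24 h. They were the dNTP hydrolase Samhd1 at 0 h (0.85, adjusted p = 0.0273), the ectonucleotidase Nt5e at 0, 4 and 8 h (1.78, 1.96 and 1.54) and Adk, which was lower in cKO at 4 h (−0.98, SE 0.123, adjusted p = 7.87e-06).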

How the data were processed

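RNA was measured by Smart-seq2 in 24 libraries from 6 mice, each sampled at 4 times, and the replicates of a group are separate mice. The deposited files give expected counts, TPM and FPKM per gene for each library, per the file headers. The submitters' processing notes name STAR, RSEM and DESeq2 and the build mm10, with no role or version. The authors' expected counts estimate how many reads came from a gene, the deposited TPM values divide by length and by the library's total, and the deposited FPKM values were not used. There are no molecular identifiers, so the precision of the counts covers reads, not molecules.

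Expected counts were rounded to whole numbers. Genes were filtered with filterByExpr, which left 11470 of 23420, scaled with TMM and fitted with edgeR 4.0.16 (R 4.3.3) over all 8 groups by the robust quasi-likelihood method. The 16 comparisons were adjusted by Benjamini-Hochberg over all genes tested, and intervals are at 95%. Levels are the deposited TPM. Alternatives used DESeq2 1.42.0, limma 3.58.1 on log2(TPM + 1) and log2(TPM + 0.1), other filters and left-out libraries, 17 in all. On simulated data made from these libraries (11315 genes, 200 of them changed), the test between genotypes at 24 h called 0 changed genes in the wrong direction and 9 unchanged genes.

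The same animal gave a library at each time, per the labels, so the mouse pairs the times. The correlation of same-mouse deviations had a median of 0.0181 (−0.0846 to 0.163), against −0.00726 between different mice. The genes and lists were chosen with earlier results of these data known. Values in every library are given for the members with the largest and smallest change from 0 to 24 h in WT within each role and for pairs of enzymes of 1 step or 1 locus, and the other members are summarised. Of each context list, up to 3 called genes with the smallest adjusted p from 0 to 24 h in WT are named, with any called between genotypes, and 1 gene that this rule names is not reported here. Nme4 and Slc28a2 were singled out after their values were seen. Ratios within libraries, with their sign-flip test, were added after the data had been seen. Promoters are from RefSeq (GRCm38.p6).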

Additional observations from a re-analysis of the deposited data

How the results depend on the processing

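Of 202 calls of a member in a comparison of times, 173 held in every alternative that tested the gene, 29 were lost in at least 1 and 0 reversed. There were 17 alternatives, but Ak4 was not tested in all of them, with 16 from 0 to 24 h in WT. Leaving out 1 mouse at a time gave 29 to 29 members called from 0 to 24 h in either genotype, 21 to 25 (WT) and 19 to 23 (cKO) from 0 to 4 h, 23 to 27 and 23 to 25 from 4 to 8 h, and 16 to 24 and 20 to 25 from 8 to 24 h. The lowest and highest number of members called between genotypes at 4 h was 0 and 1, the 1 without mouse 4, and the same holds for the genotype difference in the step from 4 to 8 h. DESeq2 also called 1 member, Uck2, in each of these.

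The sign of the uncalled difference of Prps2 between 24 and 0 h turned without the filter on low counts (0.0503 in WT, 0.0213 in cKO). Leaving out 1 mouse at a time gave values of Prps2 in cKO from −0.0962 (without mouse 3) to 0.0509 (without mouse 1). The cause was not tested. Summed as TMM-scaled CPM, which does not divide by length, the fold from 0 to 24 h was 1.58 (WT) and 1.69 (cKO) for PRPP synthesis, 3.53 and 3.45 for the purine ring, 3.02 and 2.86 for de novo pyrimidines, 1.11 and 1.10 for pyrimidine salvage, 2.65 in WT for the kinases, and 2.80 and 2.74 for all members.

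The step from 8 to 24 h in WT depended most on scaling. The median of all genes was −0.12 and moved to −0.02 without Rn45s, where 21 members were called higher and 4 lower. From 4 to 8 h in WT, 24 were called higher and 2 lower without Rn45s.

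With the mouse as a replicate block, 19 members were called higher and 6 lower from 0 to 4 h in WT, 25 and 1 from 4 to 8 h, 17 and 5 from 8 to 24 h, and 26 and 3 from 0 to 24 h. In cKO these were 18 and 6, 24 and 1, 21 and 3, and 26 and 3. Beside the calls given with their blocked values for Ppat, Atic, Uck2 and Cmpk1, the block changed no other call. It called 0 members for a genotype difference in a change over time, and it could not be fitted between genotypes at 1 time, since each mouse has 1 genotype. With 3 mice a group, the depth of Ak4, Adssl1 and Upp1 limits what can be said of them.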
